A study of Saccharomyces cerevisiae with 4 samples.

Results

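The 32 genes described here encode the enzymes of glycolysis, of fermentation to ethanol and acetate, and of the gluconeogenic bypass in Saccharomyces cerevisiae, out of 6002 nuclear protein-coding genes. They were taken by name, as a list drawn up with earlier results of these data known. Each was read for peaks of Hst1 and Sir2, related NAD+-dependent deacetylases, in chromatin immunoprecipitation followed by sequencing (ChIP-seq). The 3 immunoprecipitates (IPs) came from a strain carrying Sir2-HA (LRY1926), a strain carrying Hst1-HA (LRY0558) and the untagged parental strain (LRY1009), whose IP with the same anti-HA antibody is the mock IP. All 3 strains were grown at 30 °C in YPD with 2% glucose and harvested in early log phase, so every value below belongs to cells growing on glucose. All were crosslinked with both 10 mM DMA and 1% formaldehyde. The labels do not say which promoters drove the tagged genes or which other alleles the strains carried. Each IP is represented by 1 peak list, with 692 peaks for Hst1, 159 for Sir2 and 3 for the mock IP. There was thus no replicate spread, and no test was made between IPs or between groups of genes.

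Glycolysis splits glucose to pyruvate, and yeast on abundant glucose turns most of that pyruvate to ethanol through pyruvate decarboxylase and alcohol dehydrogenase. Many steps have several isozyme genes, of which some carry the flux on glucose while others are minor, or are repressed until glucose runs out. Hst1 is known as a corepressor that is held at promoters by the DNA-binding protein Sum1, and Sir2 as the deacetylase of silent chromatin. The 32 genes were divided on this background knowledge into 15 that carry the flux on glucose (HXK2, PGI1, PFK1, PFK2, FBA1, TPI1, TDH2, TDH3, PGK1, GPM1, ENO2, CDC19, PDC1, ADH1 and ALD6) and 17 that are minor, glucose-repressed or gluconeogenic (HXK1, GLK1, EMI2, TDH1, GPM2, GPM3, ENO1, PYK2, PDC5, PDC6, ADH2, ADH3, ADH4, ADH5, ALD4, FBP1 and PCK1). Expression was not measured in this series.

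Hst1 summits lay upstream of some of these genes, more of them minor or repressed isozyme genes than main ones, and Sir2 peaks lay at none. A summit, the highest point of a peak, fell in the 500 bp upstream of the annotated start of 9 of the 32 genes (28.1%) in the Hst1 list, where 8.41% of all coding genes had one. The 9 were 2 of the 15 main genes (HXK2 and TDH3, 13.3%) and 7 of the 17 minor or repressed genes (GLK1, EMI2, TDH1, GPM2, PYK2, ADH3 and ADH5, 41.2%). The difference between these classes was not tested. In the Sir2 list 0 of 32 had such a summit, against 0.467% of all coding genes, and 0 of 32 had any bp of a peak in promoter or body, against 2.8%. In the mock IP list both counts were 0 of 32, where 0% of all coding genes had a summit upstream and 0.0666% had any bp of a peak. The background share of Sir2 is itself so low that 0 of 32 does not set these genes apart.

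With any bp of an Hst1 peak in the 500 bp promoter or in the gene counted, 14 of 32 genes had one (43.8%), against 14.6% of all coding genes. These were the 9 above and PGI1, ENO1, CDC19, ALD6 and PCK1, whose summits lay beyond the 500 bp limit, between 512 and 626 bp upstream. Of the main genes 5 of 15 and of the minor or repressed genes 9 of 17 were among them. All 14 genes had peak sequence in the promoter (43.8% of the 32), against 12.5% of all coding genes. In the gene itself 1 of 32 (PYK2, 3.12%) had any, against 6.01%, a count that does not set these genes apart.

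**Figure D1:**
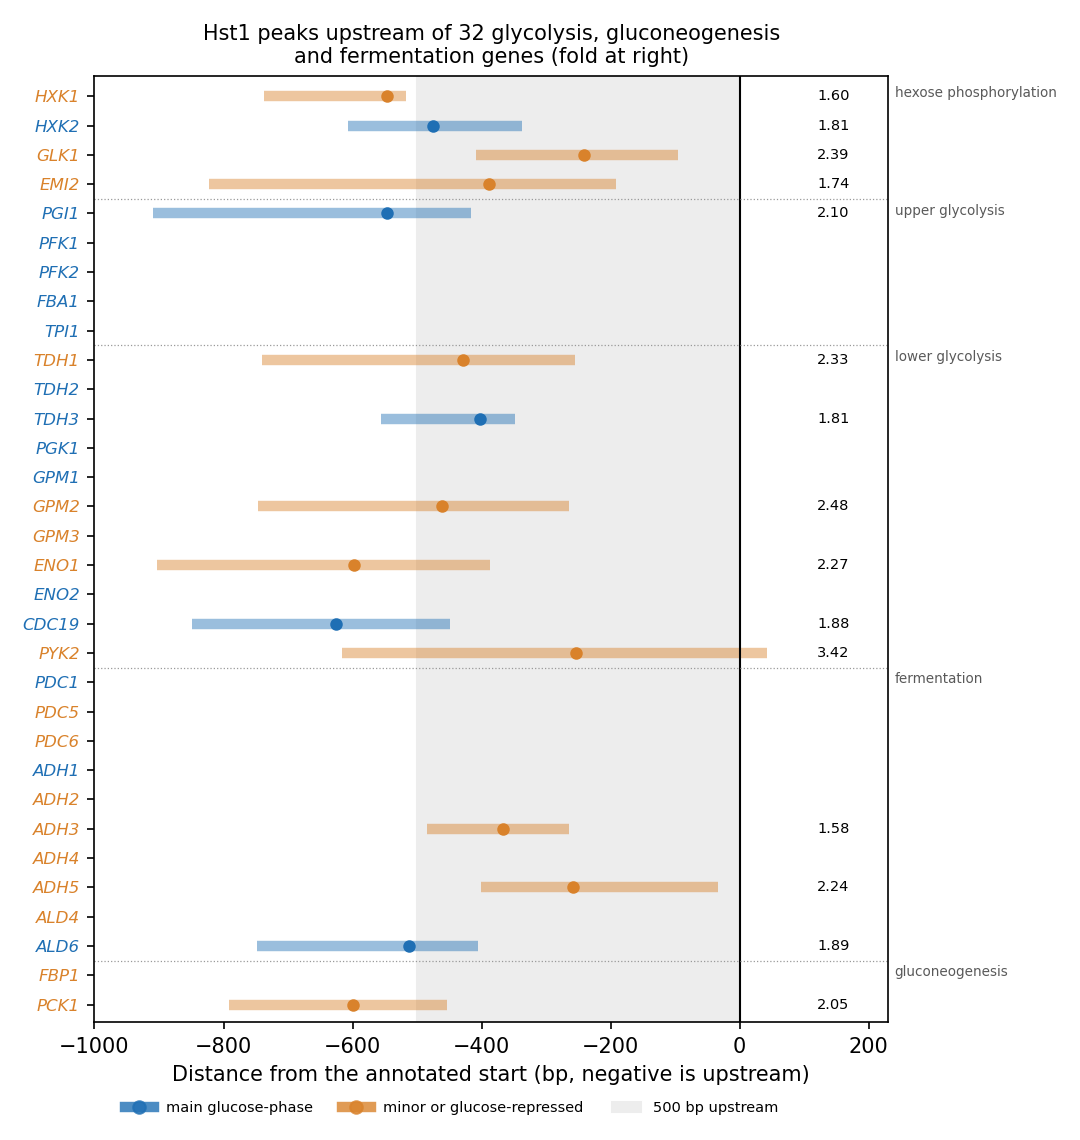
Hst1 peaks (bars) and their summits (dots) upstream of the 32 genes, plotted as bp from the annotated start, with the authors' fold enrichment printed at the right, blue for main glucose-phase genes and orange for minor or repressed ones. The 15 summits lie between 242 and 626 bp upstream, 9 of them inside the shaded 500 bp, and PYK2 has the peak that reaches into the gene.

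In the first step, phosphorylation of the hexose, 4 of 4 genes had an Hst1 summit in the 1000 bp upstream, against 12.9% of all coding genes. It was 3 of 4 in the 500 bp upstream, against 8.41%. With a −log10 q of at least 10 as well, it was 1 of 4 (GLK1), against 5.4%. A step of 4 genes is too small to set beside these shares. GLK1 encodes glucokinase (III, 50838 to 52340, plus strand), and its peak (III, 50429 to 50742) had a fold of 2.39, a −log10 q of 18.0 and a summit 242 bp upstream. The fold is the authors' own value, the enrichment at the summit over the peak caller's local background, and it is compared within the Hst1 list only. Among the 9 genes GLK1 had the summit nearest to its start, and the whole peak lay in its promoter. That summit also lay inside YCL042W, an annotated gene that overlaps the promoter, and 375 bp upstream of PDI1, which encodes protein disulfide isomerase and is read away from GLK1.

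HXK2 encodes the hexokinase that dominates on glucose (VII, 23935 to 25395, plus strand), and its peak (VII, 23328 to 23597) had a fold of 1.81, a −log10 q of 6.12 and a summit at 475 bp. EMI2 encodes a glucokinase-like protein (IV, 1474974 to 1476476, minus strand), and its peak (IV, 1476668 to 1477299) had a fold of 1.74, a −log10 q of 6.59 and a summit at 389 bp. That summit lay between divergent genes and was slightly nearer to the start of GRH1, a Golgi protein gene, at 374 bp. HXK1, the glucose-repressed hexokinase gene (VI, 253592 to 255049, minus strand), had its peak (VI, 255566 to 255786) wholly beyond the 500 bp, with a fold of 1.60, a −log10 q of 3.31 and a summit at 546 bp. Of these 4 peaks, the GLK1 peak was above the median fold of the Hst1 list, 2.22, and the other 3 were below it.

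In upper glycolysis 0 of 5 genes had a summit in the 500 bp upstream, which at the 8.41% of all coding genes does not set this step apart. PGI1, the phosphoglucose isomerase gene (II, 612236 to 613900, minus strand), had a peak (II, 614316 to 614810) with a fold of 2.10, a −log10 q of 9.52 and a summit at 546 bp. That summit was nearer to the start of YBR196C-A, a short gene between them, at 273 bp. PFK1 and PFK2, which encode the subunits of phosphofructokinase, FBA1, which encodes aldolase, and TPI1, which encodes triose phosphate isomerase, had no peak in promoter or body. The nearest Hst1 peak was 11.1 kb from PFK1, 9.22 kb from PFK2, 3.51 kb from FBA1 and 4.23 kb from TPI1.

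Lower glycolysis held the strongest peak of the 32 genes, at PYK2. This gene encodes the glucose-repressed pyruvate kinase (XV, 984942 to 986462, minus strand). Its peak (XV, 986420 to 987078) had the authors' fold of 3.42, with −log10 q 50.1 and rank 141 among the 692, and a summit 254 bp upstream, and it covered all 500 bp of the promoter and the first 43 bp of the gene. The gene next upstream is PUT4, a proline permease gene in tandem. CDC19, the pyruvate kinase gene that serves on glucose (I, 71786 to 73288, plus strand), had a peak of fold 1.88 and −log10 q 7.21 (I, 70937 to 71337) with its summit at 626 bp, the farthest upstream of the 15. It reached 52 bp into the 500 bp promoter. A second Hst1 peak of fold 2.04 (I, 73530 to 73784) lay 242 bp past the end of CDC19. The summit of this second peak lay 80 bp upstream of the start of another gene, YAL037C-A.

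The 3 glyceraldehyde-3-phosphate dehydrogenase genes differed among themselves. TDH1, the minor isozyme gene (X, 338271 to 339269, plus strand), had a peak (X, 337530 to 338015) with a fold of 2.33, a −log10 q of 14.1 and a summit at 429 bp. A divergent annotated gene, YJL052C-A, 267 bp upstream of TDH1, lay between that summit and the TDH1 start. TDH3, the main one (VII, 882812 to 883810, minus strand), had a peak (VII, 884158 to 884366) with a fold of 1.81, a −log10 q of 6.55 and a summit at 403 bp, and at 209 bp this was the shortest of the 15 peaks. TDH2 (X, 453683 to 454681, minus strand) had none, with the nearest Hst1 peak 16.2 kb away.

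Among the phosphoglycerate mutase genes, GPM2, a homologue with no known main role in glycolysis (IV, 413953 to 414888, plus strand), had a peak (IV, 413206 to 413689) of fold 2.48 and −log10 q 17.5 with its summit at 462 bp. GPM1, which encodes the working enzyme, and GPM3, another homologue, had none, and their nearest Hst1 peaks were 20.1 and 6.32 kb away. Of the enolase genes, ENO1 (VII, 1000927 to 1002240, plus strand) had a peak (VII, 1000024 to 1000540) of fold 2.27 and −log10 q 16.7 with its summit at 598 bp. ENO2, the glucose-induced enolase gene, had none, the nearest being 1.34 kb past its end. PGK1, the phosphoglycerate kinase gene, had its nearest 13.7 kb away.

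In fermentation 2 of 10 genes, ADH3 and ADH5, had a summit in the 500 bp upstream, a count too small to set beside the 8.41% of all coding genes. ADH5, a minor isozyme gene (II, 533762 to 534817, plus strand), had a peak (II, 533361 to 533728) with a fold of 2.24, a −log10 q of 12.7 and a summit at 259 bp. That summit lay inside YBR144C, a divergent annotated gene 212 bp upstream of ADH5. ADH3, which encodes the mitochondrial enzyme (XIII, 434788 to 435915, plus strand), had a peak (XIII, 434304 to 434524) with a fold of 1.58, a −log10 q of 3.65 and a summit at 367 bp, ranked 671 of 692 and so among the weakest of the list. ADH1, the fermentative enzyme's gene, had no peak in its promoter, and the nearest Hst1 peak began 1.12 kb upstream with a fold of 1.72. ADH2, the glucose-repressed gene that serves ethanol use, had its nearest Hst1 peak 21.2 kb away.

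The pyruvate decarboxylase genes PDC1, PDC5 and PDC6 had no Hst1 peak upstream, with the nearest peaks 2.15, 4.32 and 0.116 kb away. The one near PDC6 lay past the end of the gene, with its summit inside the noncoding gene SUT125 and a fold of 1.94. ALD6, the cytosolic acetaldehyde dehydrogenase gene (XVI, 432588 to 434090, plus strand), had a peak (XVI, 431840 to 432182) with a fold of 1.89, a −log10 q of 8.33 and a summit at 512 bp, inside YPL062W. ALD4, which encodes a mitochondrial aldehyde dehydrogenase, had its nearest 2.93 kb past its end.

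The gluconeogenic genes are repressed in these cells' medium and differed from each other. PCK1, the phosphoenolpyruvate carboxykinase gene (XI, 631152 to 632801, plus strand), had a peak (XI, 630361 to 630698) of fold 2.05 and −log10 q 9.58 with its summit at 600 bp and 47 bp of the peak in the promoter. FBP1, the fructose-1,6-bisphosphatase gene, was the farthest of the 32 from an Hst1 peak, at 33.9 kb.

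**Figure D2:**
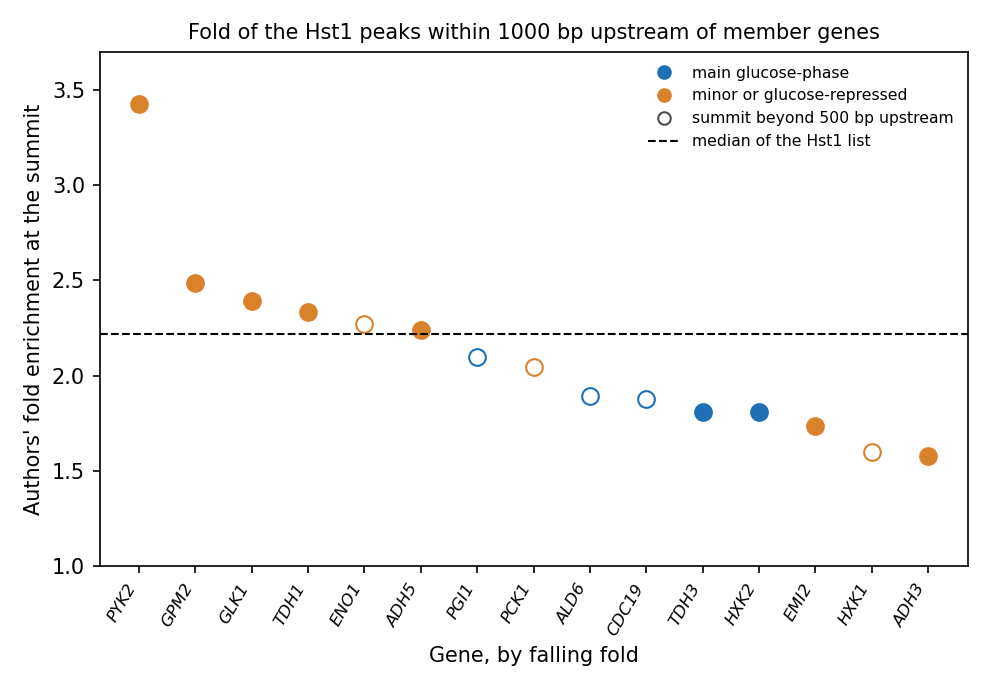
Authors' fold enrichment at the summit of the 15 Hst1 peaks within 1000 bp upstream of these genes, sorted, with filled points for summits within 500 bp and the dashed line at the median of the whole Hst1 list. The 6 peaks above the line are all at minor or repressed genes, and the 5 peaks of main genes lie between 1.81 and 2.10.

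The folds of these peaks spread around the middle of the Hst1 list, with 1 of them, at PYK2, above the list's upper quartile of 3.15. Over the 9 genes the median fold was 2.24 (range 1.58 to 3.42), against 2.32 over the 412 peaks with a summit in the 500 bp upstream of any coding gene. Over the 15 peaks within 1000 bp it was 2.05, against 2.28 over all genes with such a summit, and 6 of the 15 exceeded the list's median. All 6 belonged to minor or repressed genes (PYK2, GPM2, GLK1, TDH1, ENO1 and ADH5). The 5 main genes with a peak ran from 1.81 to 2.10, with a median of 1.88, and the 10 minor or repressed ones from 1.58 to 3.42, with a median of 2.25, so the ranges overlapped. Requiring a −log10 q of at least 10 kept a summit in the 500 bp upstream at 5 of 32 genes (GLK1, TDH1, GPM2, PYK2 and ADH5), against 5.4% of all coding genes. Of the 15 main genes it kept 0, which at that share does not set them apart. Peak lengths ran from 209 to 659 bp, with a median of 368 bp, against 400.5 bp for the whole list.

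Set side by side, isozymes of the same step showed no single pattern. Here a gene had a peak if a summit lay in the 1000 bp upstream. The summits of HXK1, ENO1, CDC19 and ALD6 lay beyond the 500 bp limit, and under that limit these genes had none. The peak of the minor or repressed gene had the higher fold in 3 comparisons where both genes had a peak, PYK2 over CDC19 (3.42 and 1.88), TDH1 over TDH3 (2.33 and 1.81) and GLK1 over HXK2 (2.39 and 1.81). The main gene HXK2 (1.81) had the higher fold in 2 others, over HXK1 (1.60) and over EMI2 (1.74). At the enolase step ENO1 had a peak and the main gene ENO2 had none. At the phosphoglycerate mutase step GPM2 had a peak, while GPM3 and the main gene GPM1 had none. At the alcohol dehydrogenase step ADH3 and ADH5 had peaks, while ADH2, ADH4 and the main gene ADH1 had none. The acetaldehyde dehydrogenase genes went the other way, with a peak at ALD6 and none at ALD4. PDC1, PDC5 and PDC6 were alike in having none.

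Summit positions of these genes overlapped those of the other genes. For the 9 genes with a summit in the 500 bp upstream the median was 389 bp and the quartiles were 259 and 429 bp, against a median of 321 bp and quartiles of 236 and 403 bp for all 505 coding genes with one. The 15 summits within 1000 bp fell between 242 and 626 bp upstream, with a median of 462 bp, against 409 bp for all 774 coding genes with a summit there. One member gene (GLK1, 3.12%) had a summit in the nearest 250 bp, against 2.45% of all coding genes. The members just inside the 500 bp limit were GPM2 at 462 bp and HXK2 at 475 bp, and those just outside were ALD6 at 512 bp and HXK1 and PGI1 at 546 bp each. With the limit at 1000 bp, 15 of 32 genes (46.9%) had a summit, against 12.9% of all coding genes, and these were 5 of 15 main (33.3%) and 10 of 17 minor or repressed genes (58.8%).

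**Figure D3:**
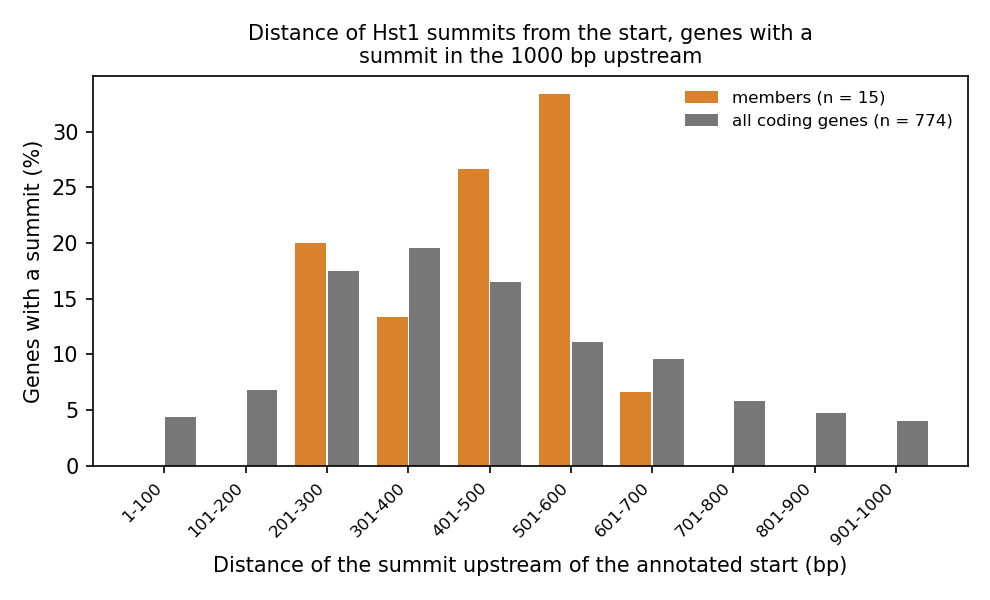
Distance of the Hst1 summit upstream of the annotated start, in bins of 100 bp, as the percent of genes with a summit in the 1000 bp upstream, for the 15 member genes (orange) and for all 774 coding genes (grey), taking the peak of highest fold where a gene had several. Both sets have most of their summits between 200 and 700 bp, and with 15 members a single gene makes up 6.67%.

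These genes have long upstream regions. The median distance from the start to the next annotated gene upstream was 714.5 bp for the 32 genes, against 422.5 bp for all coding genes, and 23 of 32 had more than 500 bp. Among all coding genes, 12.1% of those with more than 500 bp and 5.96% of those with less had a summit in the 500 bp upstream. Of the 32 genes, 5 of 23 with more than 500 bp (21.7%) and 4 of 9 with less (GLK1, TDH1, PYK2 and ADH5, 44.4%) had one, in a split made after the values were seen. The 15 main genes had a median of 731 bp and the 17 minor or repressed ones 649 bp. Of the 15 summits within 1000 bp, 13 had the member's start as the nearest start they lay upstream of, EMI2 and PGI1 being the exceptions.

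Sir2 peaks were far from nearly all of these genes, with a median gap of 60.3 kb to the nearest one. The closest was a peak of fold 2.84 (VII, 17775 to 18317) that lay 1.47 kb past the end of ADH4, a minor alcohol dehydrogenase gene 15.2 kb from the left end of chromosome VII, and 5.62 kb upstream of HXK2. An Hst1 peak of fold 4.26 (VII, 18298 to 18901) overlapped its end, 1.99 kb past the end of ADH4. Neither touched the promoter or body of ADH4 or HXK2. The mock IP peaks were at least 46.6 kb from each of the 6 members that shared a chromosome with one.

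Other genes of carbon metabolism had Hst1 summits as well. Of 68 such genes, 14 (20.6%) had a summit in the 500 bp upstream, against the same 8.41%, and 0 had one of Sir2, against 0.467%. GND2, the minor 6-phosphogluconate dehydrogenase gene of the pentose phosphate pathway (fold 3.80, 317 bp), PYC1, a pyruvate carboxylase gene (3.48, 393 bp), ACO1, the aconitase gene (3.13, 412 bp), and NQM1, the minor transaldolase gene (2.93, 363 bp), had the highest folds. TAL1, the main transaldolase gene, had a fold of 2.08. In the glyoxylate cycle CIT2 (2.46), IDP2 (1.86) and MDH2 (1.72) had a summit, which made 3 of 6. With a −log10 q of at least 10 it was 1 of 6 (CIT2). These 6 genes are too few to set beside the share of all coding genes. Summits also lay upstream of GPP2 (2.17) of glycerol synthesis, of TSL1 (2.14), GSY2 (2.06) and TPS1 (1.45) of trehalose and glycogen synthesis, and of IDH1 (1.99), which encodes a mitochondrial enzyme. Acetate and acetyl-CoA genes had 0 of 5, which at 8.41% of all coding genes does not set them apart.

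Among 28 genes that regulate these pathways, 5 (17.9%) had an Hst1 summit in the 500 bp upstream, against 8.41% of all coding genes, and 0 had a Sir2 summit, against 0.467%. GCR1 encodes the main transcriptional activator of glycolytic genes, and its peak (XVI, 411367 to 412299) had a fold of 7.52, with −log10 q 195, and a summit 319 bp upstream. It ranked 16 of 692 and so exceeded every peak at the enzyme genes. ABF1 (2.99, 34 bp) and REB1 (1.86, 142 bp) encode general regulatory factors that also act at glycolytic promoters. NRG1, a glucose-dependent repressor gene (2.08, 419 bp), and GID8, a gene of the ubiquitin ligase that degrades gluconeogenic enzymes (1.97, 497 bp), completed the list.

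**Figure D4:**
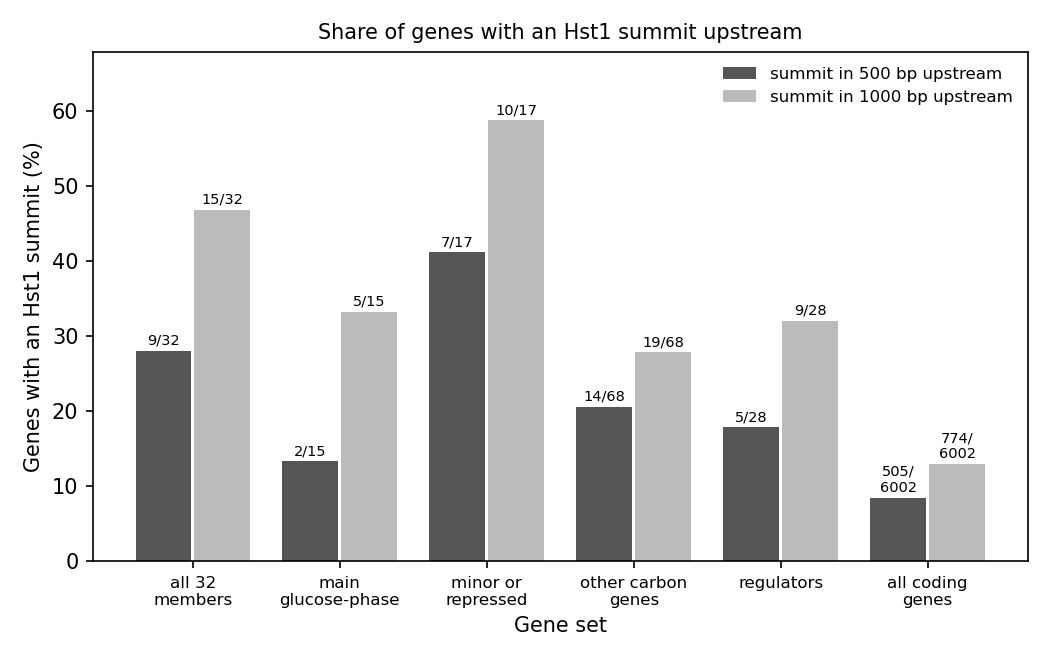
Percent of genes with an Hst1 summit in the 500 bp (dark) or 1000 bp (light) upstream, for the 32 genes, their classes, other carbon genes, regulators and all coding genes, with the counts above the bars. The dark bars run from 13.3% for the 15 main genes to 41.2% for the 17 minor or repressed genes, beside 8.41% for all coding genes.

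The lists give peaks and not coverage, so the sequencing depth is unknown and a gene without a peak may hold signal under the authors' unstated cutoff. Coding sequences of TDH2 and TDH3, of ENO1 and ENO2, of ADH1 and ADH2, and of PDC1, PDC5 and PDC6 resemble each other, and the labels do not say how reads were placed among such copies, so the lack of peaks inside these genes is uncertain.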

How the data were processed

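The authors deposited 1 peak list for each of 3 IPs. Per the submitters' processing notes, BWA and MACS2 were used on the sacCer3 build; neither versions and cutoffs nor the control library of each list are given in those sources, and the same holds for the pooling of the 2 technical replicates that the design text names. The deposited values are the fold (a ratio) at the summit, a −log10 p, a −log10 q, and a score that is 10 times the −log10 q. The genomic input was not analysed here.

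Peak starts and summits were converted to 1-based positions with Python 3.11.15 and pandas 2.3.3. Genes came from a RefSeq table of R64, the assembly behind sacCer3, with strand read from the systematic name (W or C), and all 32 symbols matched. A promoter was the 500 bp before the annotated start. Where a gene had several summits, the peak of highest fold was used. The functions that assign peaks were tested on simulated peaks. Design fixed counts beside the background, with no test, because each IP has 1 list. All 32 members are named, and so is every gene of the other carbon and regulator lists with a summit in its promoter, except 1 that is counted but not reported here. The members and lists were chosen with earlier results of these data known. No sequence is printed, since no genome sequence was used here.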

Additional observations from a re-analysis of the deposited data

How the results depend on the processing

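The count of 9 of 32 genes with an Hst1 summit rested on the 500 bp limit and on weak peaks. It became 1 with 250 bp, 15 with 1000 bp, 5 with −log10 q 10 or more, 5 in the strongest 50% by fold, and 1 (PYK2) with the Hst1 list cut to the 159 strongest peaks, as many as Sir2 had. The shares of all coding genes there were 2.45%, 12.9%, 5.4%, 4.6% and 2.23%, so with 250 bp and in the cut list the members, at 3.12%, were near the background. With the nearest start only it was 8, against 6.86% of all coding genes, and with summits outside all genes 7, against 7.16%. It stayed at 9 with nearby peaks merged, against 8.06%, and with mock IP overlaps removed, against 8.41%. The 2 main genes became 5 with 1000 bp and 0 with 250 bp, at the higher −log10 q, in the strongest 50% and in the cut list. The 7 minor or repressed genes became 1 with 250 bp and 1 in the cut list. Genes with any peak bp went from 14 to 6 at the higher −log10 q and in the strongest 50%, settings whose share of all coding genes is not given here. With the gene body alone they went to 1, against 6.01%. The median fold of 2.24 was 2.39 with 250 bp, at the higher −log10 q and in the strongest 50%, 2.05 with 1000 bp, 2.29 with the nearest start only, 1.81 outside all genes and 3.42 in the cut list. Sir2 and mock IP counts were 0 in every alternative run. Only the 1000 bp limit could have raised them, since the other settings drop or narrow peaks from a count already at 0. With 1000 bp the Sir2 share of all coding genes was 0.916%, so 0 of 32 does not set these genes apart there either. With ENO1, ALD6 and ADH3 left out the class counts were 2 and 6. No paired analysis was possible because each IP has 1 list. Depth is unknown, no library could be left out, and the classes rest on background knowledge of expression.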

Other observations

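Several genes of the same pathways had an Hst1 peak that the 500 bp rule did not count. They were chosen after their values were seen and are given as values only. GPD1 and GPD2 encode the glycerol-3-phosphate dehydrogenases that draw carbon from glycolysis to glycerol. Peaks that reached their promoters had a higher fold than any peak of the 32 enzyme genes. The fold was 5.65 for GPD1 (IV, 410193 to 411668, summit 1307 bp upstream) and 4.97 for GPD2 (XV, 216351 to 216948, summit 574 bp upstream). The GPD1 summit lay beyond even the 1000 bp limit, with 344 bp of the peak in promoter or body. The GPD2 summit was nearer to the start of another gene, MAM3, at 415 bp. TYE7, which encodes an activator of glycolytic genes, had a peak of fold 3.49 with its summit at 913 bp. ADR1, the activator gene of ADH2 and other glucose-repressed genes, had one of fold 2.65 at 810 bp, and HAP4, a gene of respiratory activation, one of fold 1.83 at 932 bp. TKL2, the minor transketolase gene, had a fold of 2.84 at 794 bp, CIT1, the mitochondrial citrate synthase gene, 2.38 at 581 bp, and ICL1, the isocitrate lyase gene of the glyoxylate cycle, 2.07 at 524 bp.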
